A study of Mus musculus with 6 samples.

Results

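The septins are GTP-binding proteins that polymerize into filaments at the cell cortex, and the levels of their messenger RNAs were measured in mouse splenic CD8+ T cells after activation. The family was taken as every gene of the deposited tables named Sept followed by a number, which gave 13 of 47729 genes. Of these, 8 had a mean of at least 1 TPM (the standard unit of transcript abundance, corrected for transcript length and library depth) over the 6 libraries and are described in full, while the other 5 are given by their levels. The 8 were thus chosen by their mean level over both groups. The difference between groups took no part in the choice.

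The series compared 3 libraries of cells treated for 24 h with 2 µM blebbistatin, an inhibitor of the ATPase of nonmuscle myosin II, with 3 libraries of vehicle-treated cells. All cells were activated CD8+ T cells, with no genetic change named in the labels. The sample titles call the control only vehicle, its group code is pbs, and nothing further on its content is given. The labels give neither the age or strain of the mice, nor the animals or cultures behind each replicate. The p-values therefore measure the spread between these libraries, which may be technical.

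Septins assemble in a fixed order, in which members of 4 homology subgroups take set places. Sept7 is the only member of its subgroup and sits at set places in every hexamer and octamer, members of the SEPT2 subgroup (Sept1, Sept2, Sept4, Sept5) pair with each other, members of the SEPT6 subgroup (Sept6, Sept8, Sept10, Sept11, Sept14) lie between these and Sept7, and members of the SEPT3 subgroup (Sept3, Sept9, Sept12) are added in octamers. In dividing cells septins gather at the cleavage furrow, where anillin and myosin II are neighbours, and SEPT2 binds nonmuscle myosin II directly. In mouse T cells septins form a cortical corset behind the leading edge that limits blebbing.

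At an assumed 300 bases per fragment, the deposited coverage implies 17.7 to 18.9 fragments behind 1 TPM of a 2 kb transcript in each library. Levels near 1 TPM thus carry a large counting error, while counting error is small at the levels of the 6 abundant septins except Sept9. The coverage (mean read depth) of Sept9 was 16.0 to 24.2, low for its TPM, so its counting error is uncertain. All 9 CD8 T cell markers were detected at 1 TPM or more, and their summed level was 3904 to 4149 TPM in blebbistatin libraries and 3913 to 3940 TPM in vehicle libraries. Over all 13372 genes tested with limma and Benjamini-Hochberg adjustment, 1.82% passed at 0.05, 1.40% higher and 0.426% lower with blebbistatin. That is 187 genes higher and 57 lower, against 130 higher and 67 lower with median-ratio scaling and 289 higher and 208 lower once libraries were corrected for the length and GC content of transcripts. The count rested on each library, with 120, 1090 and 3 genes passing without blebbistatin 1, 2 or 3 and 13, 11 and 7 without vehicle 1, 2 or 3.

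The levels of the family split into 6 abundant genes, 2 low genes and 5 genes below 1 TPM. Starts of 4 genes that stood far apart in level are shown for their content of CG pairs: Sept7 and Sept2, at a mean of 295 and 132 TPM, and Sept14 and Sept12, which were listed at 0 in all 6 libraries. Sequences are 300 bases each, 250 before to 50 after an annotated start, from RefSeq (GRCm38.p6), read on the strand of the gene, and the capitals mark each C followed by G.
Sept7, chr9:25252642-25252941 (+): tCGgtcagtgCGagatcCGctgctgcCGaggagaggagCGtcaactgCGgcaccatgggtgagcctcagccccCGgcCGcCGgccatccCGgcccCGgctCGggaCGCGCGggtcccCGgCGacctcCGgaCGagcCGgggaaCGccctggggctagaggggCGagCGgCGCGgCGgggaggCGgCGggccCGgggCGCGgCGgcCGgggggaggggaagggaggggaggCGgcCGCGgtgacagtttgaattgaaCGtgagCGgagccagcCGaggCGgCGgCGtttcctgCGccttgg
Sept2, chr1:93478811-93479110 (+): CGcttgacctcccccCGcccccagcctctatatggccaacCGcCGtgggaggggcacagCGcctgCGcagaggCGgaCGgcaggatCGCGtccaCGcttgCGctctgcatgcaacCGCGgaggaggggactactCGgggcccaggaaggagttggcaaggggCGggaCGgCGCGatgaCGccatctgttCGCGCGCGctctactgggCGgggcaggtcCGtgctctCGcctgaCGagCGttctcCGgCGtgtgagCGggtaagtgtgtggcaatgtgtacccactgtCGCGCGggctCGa
Sept14, chr5:129704935-129705234 (-): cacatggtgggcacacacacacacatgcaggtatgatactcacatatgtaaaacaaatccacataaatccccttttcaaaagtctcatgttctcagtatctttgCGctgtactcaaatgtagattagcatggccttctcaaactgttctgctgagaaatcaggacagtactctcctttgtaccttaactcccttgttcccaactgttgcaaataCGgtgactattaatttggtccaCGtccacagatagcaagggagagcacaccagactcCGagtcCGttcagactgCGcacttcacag
Sept12, chr16:4997803-4998102 (-): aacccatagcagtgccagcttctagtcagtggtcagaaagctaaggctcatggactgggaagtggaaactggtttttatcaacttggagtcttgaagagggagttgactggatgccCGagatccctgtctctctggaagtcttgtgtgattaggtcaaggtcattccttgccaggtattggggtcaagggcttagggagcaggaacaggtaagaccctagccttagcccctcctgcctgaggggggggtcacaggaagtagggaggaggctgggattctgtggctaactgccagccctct
The Sept7 window shown held 43 CG pairs and the Sept2 window 36, against 6 in the Sept14 window and 1 in the Sept12 window. These were chosen as extremes: Sept7, Sept2 and Sept12 each have another window, which held 14, 29 and 2 CG pairs, and the other Sept7 window was not CpG-rich by the measure used. RefSeq windows were matched for 9 of the 13 septins, 19 windows in all. CpG-rich here means a GC content of at least 50% and a ratio of observed to expected CG pairs of at least 0.6. Each of the 6 septins at 1 TPM or more that had a window (Sept7, Sept9, Sept11, Sept2, Sept8 and Sept10) had at least 1 CpG-rich window. By window, 7 of their 12 (58.3%) were CpG-rich, and 0 of the 7 windows of Sept4, Sept12 and Sept14 were. Genes with several windows reach at least 1 more easily, some windows of a gene overlap, and no share by gene was taken over all genes. Counted by window, 7 of 19 septin windows (36.8%) were CpG-rich, against 33.5% of 32851 RefSeq windows of the same length. The level of a gene was part of the rule that chose the members, so this is a description.

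Positions of the 8 genes are those of the deposited tables (mm10). The SEPT2-subgroup members are Sept1 (ENSMUSG00000000486) at chr7:127214447-127233130 on the minus strand and Sept2 (ENSMUSG00000026276) at chr1:93478964-93510260 on the plus strand. Sept7 (ENSMUSG00000001833) is at chr9:25252439-25308571 and Sept9 (ENSMUSG00000059248) at chr11:117199661-117362325, both on the plus strand. Of the SEPT6 subgroup, Sept11 (ENSMUSG00000058013) is at chr5:93093437-93176447 and Sept8 (ENSMUSG00000018398) at chr11:53519257-53549565 on the plus strand, and Sept6 (ENSMUSG00000050379) at chrX:36911326-36991794 and Sept10 (ENSMUSG00000019917) at chr10:59164113-59221847 on the minus strand. Sept8 and Sept9 share chromosome 11.

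Sept1, a SEPT2-subgroup member abundant in lymphocytes, had the highest TPM of the family, at a mean of 383 TPM over the 6 libraries and 355 to 416 TPM in single libraries. By the deposited coverage (mean read depth) the order was the other way, with Sept7 first at 735 to 954 and Sept1 second at 398 to 456. Sept7 (274 to 349 TPM) came next by TPM, and its range lay wholly below that of Sept1. Sept9, the member added in octamers, ranged from 208 to 320.1 TPM and overlapped Sept7. Below a gap came Sept11 (124 to 145 TPM) and Sept2 (119.6 to 150.0 TPM), which overlapped each other, and then Sept6 (93.4 to 100.6 TPM), which overlapped neither. Sept8 (7.18 to 9.81 TPM) and Sept10 (2.34 to 3.36 TPM), the other SEPT6-subgroup members with a measurable level, lay far lower. The 6 abundant genes held 98.8% to 99.1% of the septin TPM in each library.

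**Figure D1:**
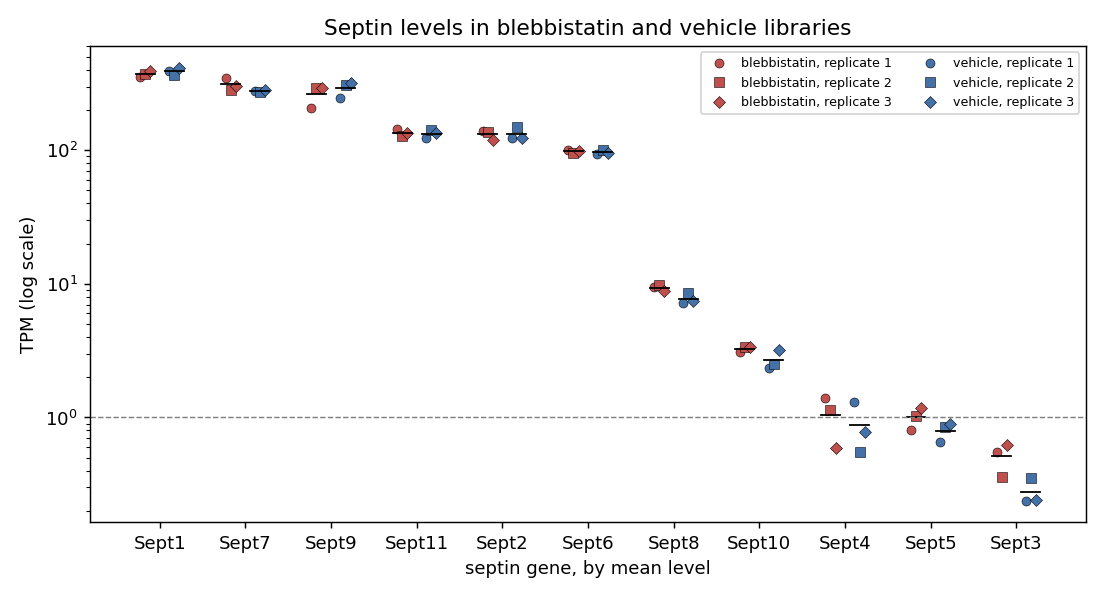
TPM on a log scale of the 11 septin genes with a level above 0, blebbistatin libraries in red left of vehicle libraries in blue, with the marker shape giving the replicate and a bar the group mean; the dashed line is 1 TPM. Sept1 ran from 355 to 416 TPM and Sept10, the lowest gene above the line in mean level, from 2.34 to 3.36 TPM.

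The members on either side of the threshold were Sept10, with a mean of 2.97 TPM, and Sept4 and Sept5, with 0.960 and 0.900 TPM. Sept4, known from the sperm annulus, had 1.39, 1.14 and 0.589 TPM in blebbistatin libraries 1, 2 and 3 and 1.31, 0.554 and 0.780 TPM in vehicle libraries 1, 2 and 3. Sept5, known from neurons and platelets, had 0.812, 1.03 and 1.17 TPM with blebbistatin and 0.655, 0.841 and 0.897 TPM with vehicle. The groups overlapped for each gene. Sept3, a neuronal septin, had 0.548, 0.358 and 0.626 TPM in blebbistatin libraries and 0.239, 0.351 and 0.241 TPM in vehicle libraries. The groups lay apart for Sept3, blebbistatin 2 and vehicle 2 differing by little, but a level this low was below the minimum for testing. Sept14 and Sept12, testis septins, were listed at 0 throughout.

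Sept5 overlaps Gp1bb, a platelet glycoprotein gene, and 48.6% of its GENCODE exon length is shared with Gp1bb on the same strand. Gm49601, which is not among the deposited genes, covers 56.3% on the same strand, and 83.7% is overlapped by any gene. The value of Sept5 is therefore uncertain. GENCODE places Sept5 at chr16:18620502-18629954 and the deposited gene lies at chr16:18621811-18629938, so these percentages may differ in the deposited gene. Of 18 platelet and megakaryocyte markers, 14 were tested, and 7 were higher and 0 lower with blebbistatin: Ppbp, Pf4, Itgb3, Itga2b, Vwf, Treml1 and Clu. The log2 fold change was above 0 for 11 of the 14 and below 0 for 3, F2rl3, Nrgn and P2ry12. F2rl3 averaged 14.7 TPM with blebbistatin and 17.2 TPM with vehicle. Of all tested genes 1.40% were higher and 0.426% lower. The summed level of the 18 markers was 195 to 219.6 TPM in blebbistatin libraries and 116 to 127 TPM in vehicle libraries, and none of the 18 was at 0 throughout. Gp1bb itself had a mean of 0.720 TPM with blebbistatin and 0.597 TPM with vehicle. The part of platelet RNA in the Sept5 value was not tested. Of 10 B cell markers 4 were tested and 2 were higher (1.40% of all tested genes), H2-Eb1 and Igkc, while Ighm, with the highest level, averaged 477 TPM with blebbistatin and 499.96 TPM with vehicle. The summed B cell markers were at 516 to 544 TPM with blebbistatin and 522 to 540 TPM with vehicle, and Pax5 was below 1 TPM. Ighm made up most of these sums, which hide the other tested markers. H2-Eb1 averaged 20.0 TPM with blebbistatin and 8.29 TPM with vehicle. Igkc averaged 16.6 TPM with blebbistatin and 9.22 TPM with vehicle, and Cd79b 14.6 TPM with blebbistatin and 11.5 TPM with vehicle. Of 10 myeloid markers 4 were tested, of 7 erythroid markers 2 and of 6 neural markers 2, and 0 passed in any of these lists. Their summed levels were 81.0 to 109.98 TPM with blebbistatin and 100.2 to 102 TPM with vehicle for myeloid markers, 5.66 to 6.62 TPM with blebbistatin and 5.66 to 7.23 TPM with vehicle for erythroid markers, and 48.6 to 51.8 TPM with blebbistatin and 45.3 to 48.9 TPM with vehicle for neural markers. The members with the highest level in those lists were Cst3, Hbb-bt and Mbp, and S100a9 and Snap25 were at 0 in all libraries. Cst3 made up most of the myeloid sum, at 71.6 TPM with blebbistatin and 83.7 TPM with vehicle. Of the 4 tested myeloid markers 3 had a log2 fold change above 0 and 1, Cst3, below. Cd68 averaged 9.25 TPM with blebbistatin and 6.14 TPM with vehicle, and Tyrobp 2.51 TPM with blebbistatin and 1.18 TPM with vehicle.

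With blebbistatin 0 of the 8 septins tested passed in either direction, where 1.82% of all genes did. At an unadjusted p under 0.05, 1 of 8 (Sept8, higher) was past the threshold, against 22.9% of all tested genes. The groups did not overlap for 2 of 8 septins, Sept7 and Sept8, both higher with blebbistatin, where 31.0% of tested genes lay apart, 18.0% upward and 13.0% downward. The log2 fold change was above 0 for 6 of 8 septins, as it was for 55.1% of tested genes. The median log2 fold change of the 8 was 0.029, beside 0.027 over all tested genes. The 8 values ran from -0.15 to 0.25. All log2 fold changes given are differences of log2(TPM + 1), positive where blebbistatin was above vehicle, a scale that understates changes of low genes. In these bulk libraries fewer cells of a type and less RNA per cell cannot be told apart.

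Sept7, the subunit shared by all septin filaments, had 349, 285 and 302 TPM in blebbistatin libraries 1, 2 and 3, against 277, 274 and 280.1 TPM in vehicle libraries 1, 2 and 3. Blebbistatin 1 stood well above the rest, and the lowest blebbistatin library exceeded the highest vehicle library by little. The means were 312 ± 33.2 TPM with blebbistatin and 277 ± 2.81 TPM with vehicle (SD, n = 3 each), a log2 fold change of 0.16 (SE 0.077) that did not pass with limma and Benjamini-Hochberg adjustment (adjusted p = 0.248). The 95% interval reached from 0.989-fold to 1.27-fold. Without blebbistatin 1 the log2 fold change was 0.082.

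Transcripts of Sept7 have a mean GC content of 39.3%, the lowest of the 13 septins, where the median over tested genes is 50.4%. After a loess correction of each library for transcript length and GC content, Sept7 stood at 8.22, 8.18 and 8.20 in blebbistatin libraries and 8.23, 8.18 and 8.21 in vehicle libraries on the log2(TPM + 1) scale. Before it the values had been 8.45, 8.16 and 8.24 with blebbistatin and 8.12, 8.11 and 8.13 with vehicle. The groups overlapped after the correction and the log2 fold change was -0.0027 (adjusted p = 0.971, limma with Benjamini-Hochberg). The correction had no term for treatment, so it would also remove a treatment difference that follows length or GC content. Which of these the Sept7 difference was, was not tested.

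Sept9, which carries an amino-terminal extension that binds microtubules and actin in its long isoforms, had 208, 292 and 292 TPM in blebbistatin libraries 1, 2 and 3, against 247, 306 and 320.1 TPM in vehicle libraries. Replicate 1 was the lowest of its group in both groups, and the groups overlapped. The means were 264 ± 48.5 TPM with blebbistatin and 291 ± 39.1 TPM with vehicle (SD, n = 3 each). This was the widest spread among the 8 on the log2 scale, 0.244 within groups, against a median of 0.086 over tested genes at 50 TPM or more. The log2 fold change was -0.15 (SE 0.15, Benjamini-Hochberg adjusted p = 0.592 by limma), with an interval of 0.702-fold to 1.16-fold, and it was 0.016 without blebbistatin 1.

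Sept1 had 355, 373 and 391 TPM with blebbistatin and 395, 368 and 416 TPM with vehicle, and the groups overlapped. The log2 fold change was -0.074 (SE 0.062), with an interval of 0.858-fold to 1.05-fold and an adjusted p of 0.497 by limma with Benjamini-Hochberg. It was -0.12 without vehicle 2 and -0.032 without vehicle 3. Sept2, the SEPT2-subgroup member found in most tissues, had 139.6, 137 and 119.6 TPM with blebbistatin and 124, 150.0 and 123 TPM with vehicle. GENCODE holds a second gene of the same name on the same strand over 41.8% of its exon length. That second gene is not among the deposited genes, and whether the overlap touched the level of Sept2 was not tested. The group means were both 132 TPM, and its interval ran from 0.854-fold to 1.17-fold (adjusted p = 0.997 by limma with Benjamini-Hochberg).

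Sept6 and Sept11, which stand between the SEPT2-subgroup members and Sept7 in the filament, were the abundant members of their subgroup. Sept6 had 100.6, 96.1 and 98.9 TPM with blebbistatin, against 93.4, 99.6 and 95.9 TPM with vehicle. It had the narrowest spread of the 8, 0.040 within groups on the log2 scale, and an interval of 0.941-fold to 1.11-fold. Sept11 had 145, 127 and 134 TPM with blebbistatin, against 124, 141 and 134 TPM with vehicle, and an interval of 0.906-fold to 1.14-fold. The groups overlapped for both genes, and adjusted p was 0.726 for Sept6 and 0.856 for Sept11 by limma with Benjamini-Hochberg.

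Sept8, of the same subgroup, had 9.46, 9.81 and 8.79 TPM in blebbistatin libraries 1, 2 and 3, against 7.18, 8.55 and 7.47 TPM in vehicle libraries 1, 2 and 3. All 3 blebbistatin values were above all 3 vehicle values, with blebbistatin 3 and vehicle 2 close together. The means were 9.35 ± 0.520 TPM with blebbistatin and 7.74 ± 0.719 TPM with vehicle (SD, n = 3 each), the strongest difference of the 8 by p, with a log2 fold change of 0.25 (SE 0.098). It was the septin past an unadjusted p of 0.05 and did not pass after adjustment (adjusted p = 0.195 by limma with Benjamini-Hochberg). After the length and GC correction the log2 fold change was 0.23.

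Sept10 had 3.08, 3.34 and 3.36 TPM with blebbistatin and 2.34, 2.50 and 3.21 TPM with vehicle. Vehicle 3 lay inside the range of the blebbistatin libraries. The log2 fold change was 0.22 (SE 0.13), and the interval of 0.939-fold to 1.44-fold was the widest of the 8 on the upper side.

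**Figure D2:**
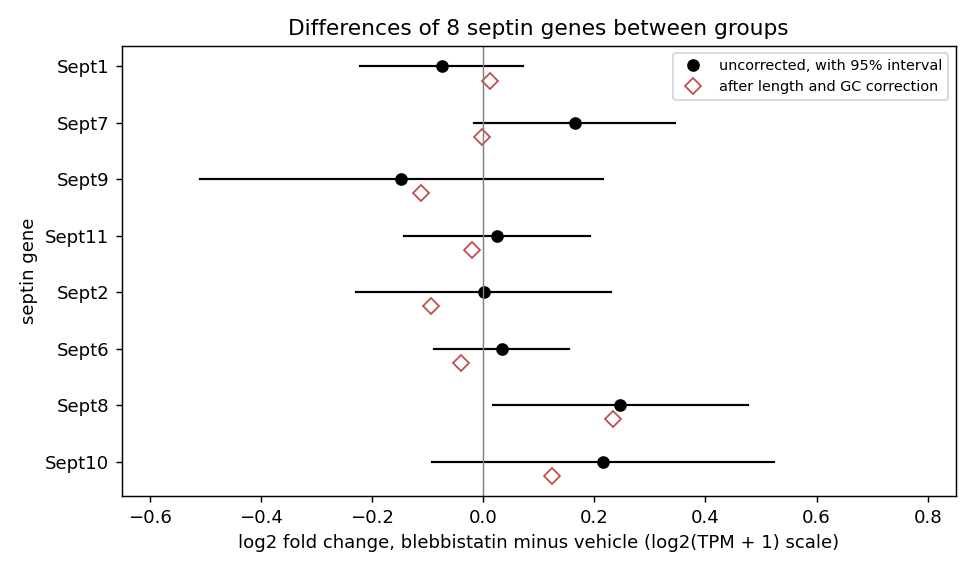
Log2 fold change of the 8 septins, blebbistatin minus vehicle, on the log2(TPM + 1) scale; filled points and lines are the values with 95% intervals by limma, and open diamonds are the values after the correction for transcript length and GC content. Sept7 moved from 0.16 to -0.0027 with the correction, while Sept8 was at 0.23 after it.

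**Figure D3:**
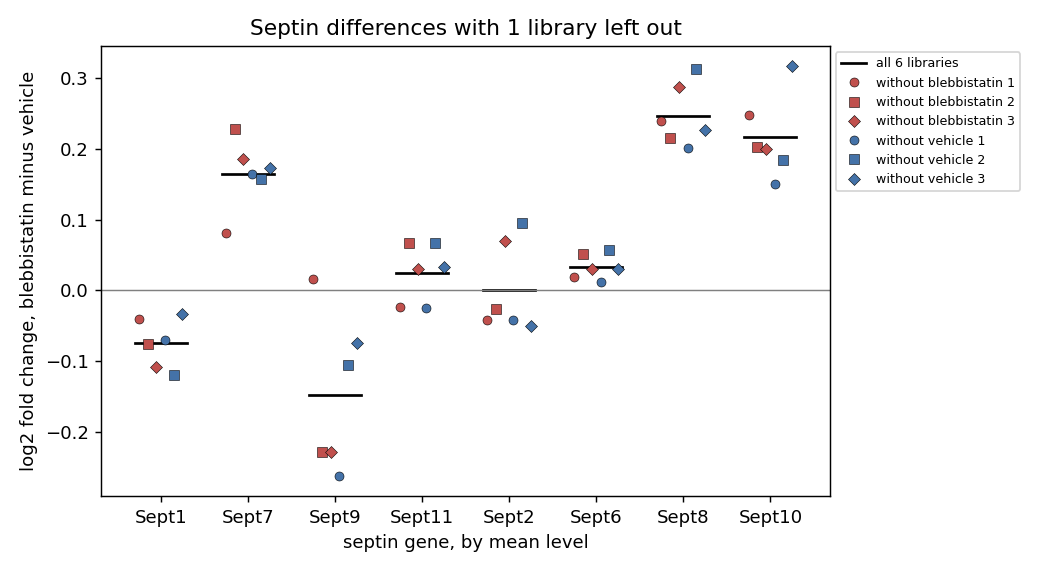
Log2 fold change of the 8 septins with each library left out in turn (red without a blebbistatin library, blue without a vehicle library, marker shape for the replicate), with a bar for all 6 libraries. Sept9 stood at 0.016 and Sept7 at 0.082 without blebbistatin 1, while Sept8 kept between 0.20 and 0.31.

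Summed over the 13 genes, septin messenger RNA came to 1313, 1326 and 1352 TPM in blebbistatin libraries and 1271, 1352 and 1381 TPM in vehicle libraries. The means were 1330.3 ± 20.3 TPM with blebbistatin and 1335 ± 57.1 TPM with vehicle (SD, n = 3 each), and the groups overlapped (two-sided exact permutation test, p = 0.90, where 3 against 3 cannot go below 0.10). Because TPM sets the total of each library to a fixed sum, this compares the share of messenger RNA and not the amount per cell.

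The SEPT2 subgroup held 37.9%, 38.6% and 37.9% of the septin TPM in blebbistatin libraries, against 40.9%, 38.4% and 39.1% in vehicle libraries. The share of Sept7 was 26.6%, 21.5% and 22.4% with blebbistatin, against 21.8%, 20.3% and 20.3% with vehicle. The SEPT3 subgroup, nearly all Sept9, held 15.9%, 22.1% and 21.7% with blebbistatin, against 19.4%, 22.7% and 23.2% with vehicle. The SEPT6 subgroup held 19.6%, 17.8% and 18.1% with blebbistatin, against 17.8%, 18.6% and 17.4% with vehicle. The groups overlapped for each of the 4 shares, and in two-sided exact permutation tests adjusted over the 4 subgroups p was 0.40 for the SEPT2 subgroup and for Sept7 and 0.50 for the SEPT6 and SEPT3 subgroups. The largest departure was 1 library: blebbistatin 1 had 1.68 Sept7 transcripts for each of Sept9, where the other blebbistatin libraries had 0.974 and 1.03 and the vehicle libraries 1.12, 0.896 and 0.875. With the length and GC correction this ratio was 1.32, 1.04 and 0.998 in blebbistatin libraries and 1.215, 0.957 and 0.936 in vehicle libraries, so that blebbistatin 1 stood closer to vehicle 1, and it rests on the TPM of Sept9, which is uncertain by coverage. Without blebbistatin 1 the difference in the SEPT3 share was 0.10 percentage points in place of -1.9, that in the Sept7 share 1.1 in place of 2.7 and that in the SEPT6 share 0.029 in place of 0.58.

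**Figure D4:**
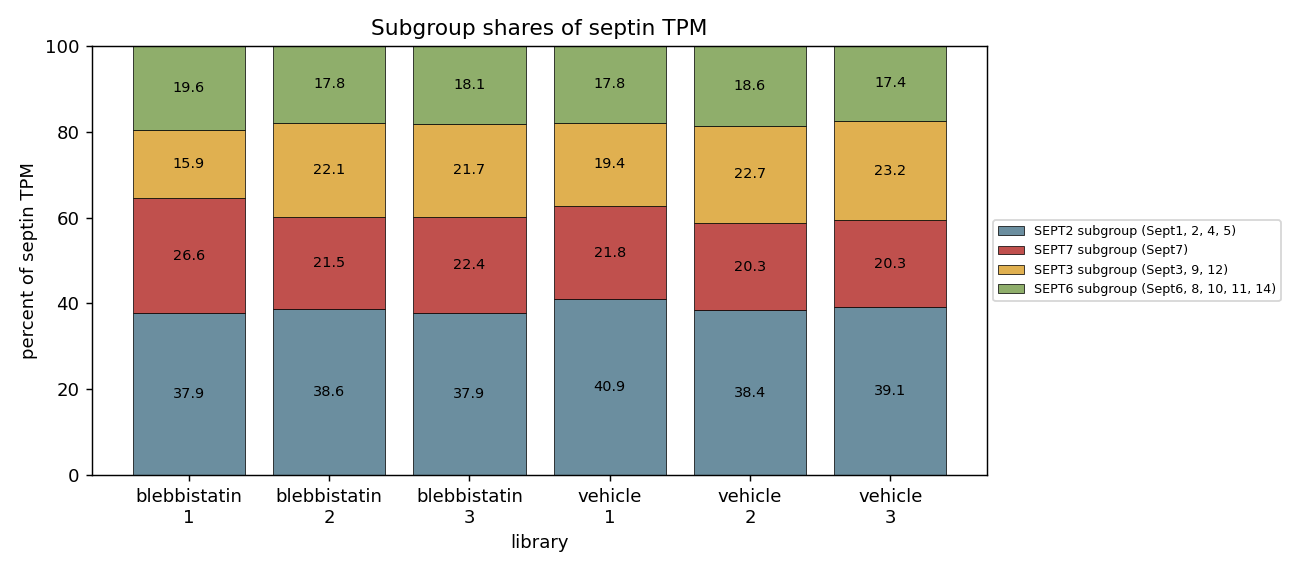
Percent of the summed septin TPM held by each of the 4 homology subgroups, 1 bar for each library, blebbistatin libraries left of vehicle libraries. Blebbistatin 1 stands apart, with 26.6% for Sept7 and 15.9% for the SEPT3 subgroup.

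The deposited tables also give a coverage, the mean read depth over a gene, and it ordered the septins differently. In each library a commonest ratio of coverage to FPKM (fragments per kilobase of transcript, scaled to depth) held for 34.9% to 35.0% of tested genes to within 1%, and nearly all others lay below it. Sept7, Sept10 and Sept5 lay at that ratio, Sept1 and Sept11 at 38.8% to 41.9% of it, and Sept9 at 2.60% to 2.90%. By the mean over libraries 61 of 13367 genes were lower than Sept9. Sept9 was the third septin by TPM but the sixth by coverage, at 16.0 to 24.2 against 735 to 954 for Sept7. GENCODE lists 10 transcripts for Sept9, of 374 to 4863 bases, and no single transcript values were used here, so the levels of septins relative to each other are uncertain, those of Sept9 and of Sept1 against Sept7 included, as is the size of the SEPT3 share. On coverage the difference in that share was -0.20 percentage points in place of -1.9, but the share itself was far smaller there. The log2 fold change of Sept9 was -0.15 on coverage, as it was on TPM. The ratio of Sept9 was alike in all libraries, and on the coverage scale 0 septins passed either.

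**Figure D5:**
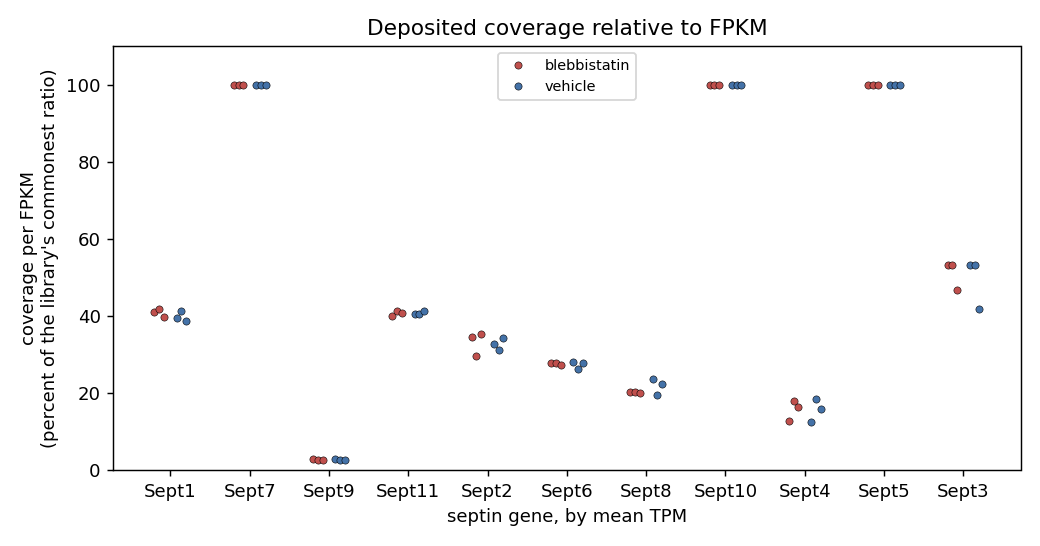
Coverage divided by FPKM for each septin as percent of the commonest ratio of the same library, 1 point for each library, blebbistatin in red left of vehicle in blue. Sept9 lay at 2.60% to 2.90% in all libraries, while Sept7, Sept10 and Sept5 lay at the commonest ratio.

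Of 22 partners and regulators of septins 18 were tested, and 0 were higher and 0 lower, a share near the 1.82% of all tested genes that passed, with a median log2 fold change of 0.047 beside 0.027 over all tested genes. The 3 with the highest level were Myl6, Cdc42 and Myl12a. Myl6, a myosin light chain, was at 1043 ± 30.3 TPM with blebbistatin and 1019.8 ± 14.4 TPM with vehicle (SD, n = 3 each). Cdc42, the GTPase that steers septins through the Borg proteins, was at 660.3 ± 66.4 TPM with blebbistatin and 614 ± 4.44 TPM with vehicle. Myl12a, another myosin light chain, was at 392 ± 51.3 TPM with blebbistatin and 378 ± 73.7 TPM with vehicle. Of the 5 Borg genes, Cdc42ep3 and Cdc42ep4 reached 1 TPM, while Cdc42ep1, Cdc42ep2 and Cdc42ep5 did not. Anln, which encodes anillin, was the 1 of 18 partners past an unadjusted p of 0.05 (22.9% of all tested genes were), at 20.3 ± 1.86 TPM with blebbistatin and 24.0 ± 1.86 TPM with vehicle (log2 fold change -0.24, Benjamini-Hochberg adjusted p = 0.196 by limma).

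Of 20 cytokinesis genes, all tested, 1 was lower with blebbistatin (Cdca8) and 0 were higher, where 0.426% of all genes were lower. Cdca8, a subunit of the chromosomal passenger complex, was at 137 ± 6.34 TPM with blebbistatin and 169 ± 2.94 TPM with vehicle (SD, n = 3 each; log2 fold change -0.31, adjusted p = 0.045 by limma with Benjamini-Hochberg). For 9 of the 20 genes every blebbistatin library was below every vehicle library, against 13.0% of all tested genes, and the median log2 fold change of the list was -0.065. The members with the highest level were Rhoa, the GTPase of the furrow, at 367 TPM with blebbistatin and 355 TPM with vehicle, Birc5 (survivin) at 302 TPM with blebbistatin and 329 TPM with vehicle, and Chmp4b, an abscission factor, at 207 TPM with blebbistatin and 237 TPM with vehicle. None of the 3 passed. Anln, Cit and Rhoa stand in both lists. The call of Cdca8 was lost without blebbistatin 1 or 3 and without each vehicle library, and 3 members passed without blebbistatin 2.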

How the data were processed

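The submitters' processing notes name the mm10 build and the tools StringTie 1.3.4, HISAT2 2.1.0 and DESeq2 1.22.2 without saying what each did. The authors deposited 1 gene table for each library with TPM, FPKM and coverage. Further settings of theirs were not given in the sources used here. Libraries were made with an Illumina TruSeq RNA kit, per the labels' protocols. Depth was read from the commonest ratio of coverage to FPKM, taking 300 bases as 1 fragment. All genes averaging 1 TPM or more were fitted together on log2(TPM + 1) with limma 3.58.1 in R 4.3.3 (mean-variance trend, Benjamini-Hochberg at 0.05), with no block on replicate number. Totals and shares were compared by exact permutation tests over samples (scipy 1.17.1). The fit was also run on simulated data with independent noise at the spread of these libraries. Such data cannot show how the calls depend on a single library, and the outcome is not used here. Positions are those of the deposited tables; exon overlaps, transcript lengths and GC content came from GENCODE (GRCm38), with length and GC for 99.6% of tested genes, and promoter windows from RefSeq (GRCm38.p6). Sept10, Sept5 and Sept3 have other ends in GENCODE than as deposited. The length and GC correction subtracted, in each library, a loess surface fitted to the deviations from the gene means. Length and GC content were plain means over the annotated transcripts of a gene. The named genes are all septins, Gp1bb, and the passing and most abundant markers. Of the partner and cytokinesis lists, members that passed or had the 3 highest levels are named. Anln, Pdcd6ip, the Borg genes, markers at 0 and platelet markers with a log2 fold change below 0 were named after their values were seen. The members and lists were chosen with earlier results of these data known. Alternatives were tried for the pseudocount, minimum level, FPKM, scaling, limma settings, replicate block, length and GC, and leaving out each library; coverage was added after seeing the data.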

Additional observations from a re-analysis of the deposited data

How the results depend on the processing

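The count of septins that passed was 0 under every alternative run. Over 142 alternative values of the 8 log2 fold changes, 126 kept their direction, 16 changed sign, and the smallest adjusted p by limma was 0.088 (Sept7 without blebbistatin 2). With median-ratio scaling Sept11, Sept2 and Sept6 were at -0.018, -0.042 and -0.0091, and Sept2 was at -0.0059 on FPKM. After the length and GC correction Sept1 was at 0.012 and Sept7, Sept11, Sept2 and Sept6 at -0.0027, -0.020, -0.094 and -0.040. With 1 library left out, Sept1 ran from -0.12 to -0.032, Sept9 from -0.26 to 0.016, Sept11 from -0.025 to 0.067 and Sept2 from -0.050 to 0.095.

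The log2 ratio of the septin totals was -0.0050, with -0.039 to 0.020 when 1 library was left out and 0.074 on coverage. The difference in the SEPT3 share ran from -3.1 to 0.10 percentage points with 1 library left out. On coverage, where the SEPT3 share was far smaller, it was -0.20, and the difference in the SEPT6 share was -0.41. Without blebbistatin 1 the SEPT6 difference was 0.029. Over all genes 244 passed, with 49 at no minimum level, 160 without the trend, 497 after the length and GC correction, and 3 to 1090 with 1 library left out (lowest without blebbistatin 3, highest without blebbistatin 2). Of the cytokinesis genes 0 passed at no minimum level, with quantile scaling or without the trend, 3 after the length and GC correction, 2 on coverage (1 higher and 1 lower) and 0 to 3 with 1 library left out. Of the partners 1 passed after the length and GC correction.

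With a replicate block 0 genes passed over all genes and 0 of the cytokinesis list. Libraries of the same number did not deviate together (r of 0.011, -0.037 and -0.034 over genes), and the labels name no pairing. With 3 libraries in each group this cannot exclude a pairing. If the numbers do pair the libraries, the block result is the one that applies. On coverage Sept8 fell below the minimum level and has no value.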
